A study of Monomorium pharaonis with 23 samples.

Results

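Of 12648 genes measured in the heads of pharaoh ant workers (Monomorium pharaonis), 84 were higher in foragers than in nurses in nearly every comparison of single libraries, and they are described here. A gene was taken in if it reached at least 1 RPKM in at least 9 of 23 libraries, as 9622 genes did, and if the forager had the higher value in at least 0.90 of the 126 pairs of 1 forager and 1 nurse library, which takes 114 pairs. The 84 genes were 0.873% of those that passed the filter on low values. RPKM divides a gene's reads by its length in kilobases and by the library's total in units of 1000000 reads, so levels of different genes can be set side by side. Because the members were picked on the values of foragers and nurses in these same libraries, their levels and differences are a description and were not tested.

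Workers of an ant colony share the work, and in many ant species younger workers tend larvae inside the nest while older ones leave it to search for food. The step from nursing to foraging is a textbook case of behaviour that changes without any change of genotype, and it goes along with wide differences in gene expression. An ant head holds the brain, the compound eyes, the antennae, the muscles of the mouthparts and several glands, so head RNA is a mixture of many cell types. A higher level in such a mixture can come from more cells of a type or from more RNA per cell, and these cannot be told apart.

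Foragers (9 libraries) were workers caught while looking for food and nurses (14 libraries) were workers caught while tending larvae; both came from colonies with 10 queens, 300 to 400 workers and 300 to 400 brood. All colonies were kept at 27 °C, 50% relative humidity and 12 h of light and 12 h of dark, and were fed mealworms and an agar-based diet 2 times a week. Polyadenylated RNA was sequenced without strand. The sources used here do not give the age or strain of the workers, the heads pooled per library or the colony a library came from, so the spread within a task may be technical in part. Foragers were sequenced less deeply, with read totals behind the RPKM values of 3.68 to 15.0 M in foragers and 8.31 to 31.3 M in nurses (M, 1000000 reads). The genes are known by identifier only; the annotation used here holds no product names, so the head could not be checked against its markers and no role is given to any member.

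The most widely separated pair of genes was LOC105841106 and LOC105833919. LOC105841106 lay at 22.7 RPKM in the lowest forager, 60.2 at the forager median and 183 in the highest, and at 1.25, 2.92 and 11.8 RPKM in nurses. LOC105833919 lay at 16.6, 45.7 and 125 RPKM in foragers and at 1.02, 2.28 and 10.2 in nurses. The ratio of the forager to the nurse median was 20.6 for the former and 20.1 for the latter, and in both genes every forager lay above every nurse.

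The nurse libraries themselves differed in this pair. For LOC105841106 nurse 6 had 11.8 RPKM, nurse 3 11.4 and nurse 1 9.83, while nurse 10 had 5.34 and each other nurse at most 4.43. LOC105833919 was raised in the same 4 nurses, with 10.0, 8.21, 10.2 and 5.96 RPKM in nurses 6, 3, 1 and 10. These values rest on counts that can be read from the deposited numbers: LOC105841106 had 340, 315 and 103 reads in nurses 6, 3 and 1, and 17 to 67 reads in the other nurses. The ratio of LOC105841106 to LOC105833919 ranged from 0.871 to 1.998 over the libraries, with a median of 1.37 in foragers and 1.29 in nurses, so the level of both changed by about the same factor from task to task. Neither has a place in the annotation used here, and shared reads between them were not examined.

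In 5 further genes the lowest forager also lay above the highest nurse. LOC105835780 had 2.42, 9.02 and 12.3 RPKM in the lowest, median and highest forager and 0.0875, 1.22 and 2.02 in nurses, a ratio of medians of 7.41. It was a gene of few reads, with 12 to 127 in foragers and 1 to 33 in nurses, and the lowest nurse value was 1 read. LOC105829732 had 11.6, 21.6 and 44.8 RPKM in foragers and 1.73, 6.17 and 8.52 in nurses, a ratio of 3.51.

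LOC105834712 was the only one of the 7 fully separated genes that was also abundant. It lay at 655, 1175 and 3112 RPKM in the lowest, median and highest forager and at 256, 414 and 646 in nurses, a ratio of 2.84. The margin was narrow: the lowest forager, forager 4 with 655 RPKM, stood just above nurse 14 with 646. LOC105837415 had 8.42, 10.7 and 33.3 RPKM in foragers against 4.19, 5.48 and 8.19 in nurses, and LOC105837684 had 7.45, 9.78 and 12.2 against 3.26, 5.32 and 7.17. These last 2 differed by less than 2-fold, with ratios of 1.96 and 1.84, yet the groups did not overlap. Complete separation thus occurred at small and at large differences. Of the 9622 genes that passed the filter, the 7 fully separated genes were the only ones with the forager higher in all 126 pairs. They are the top of the score that chose the members, so nothing is read from their number.

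**Figure D1:**
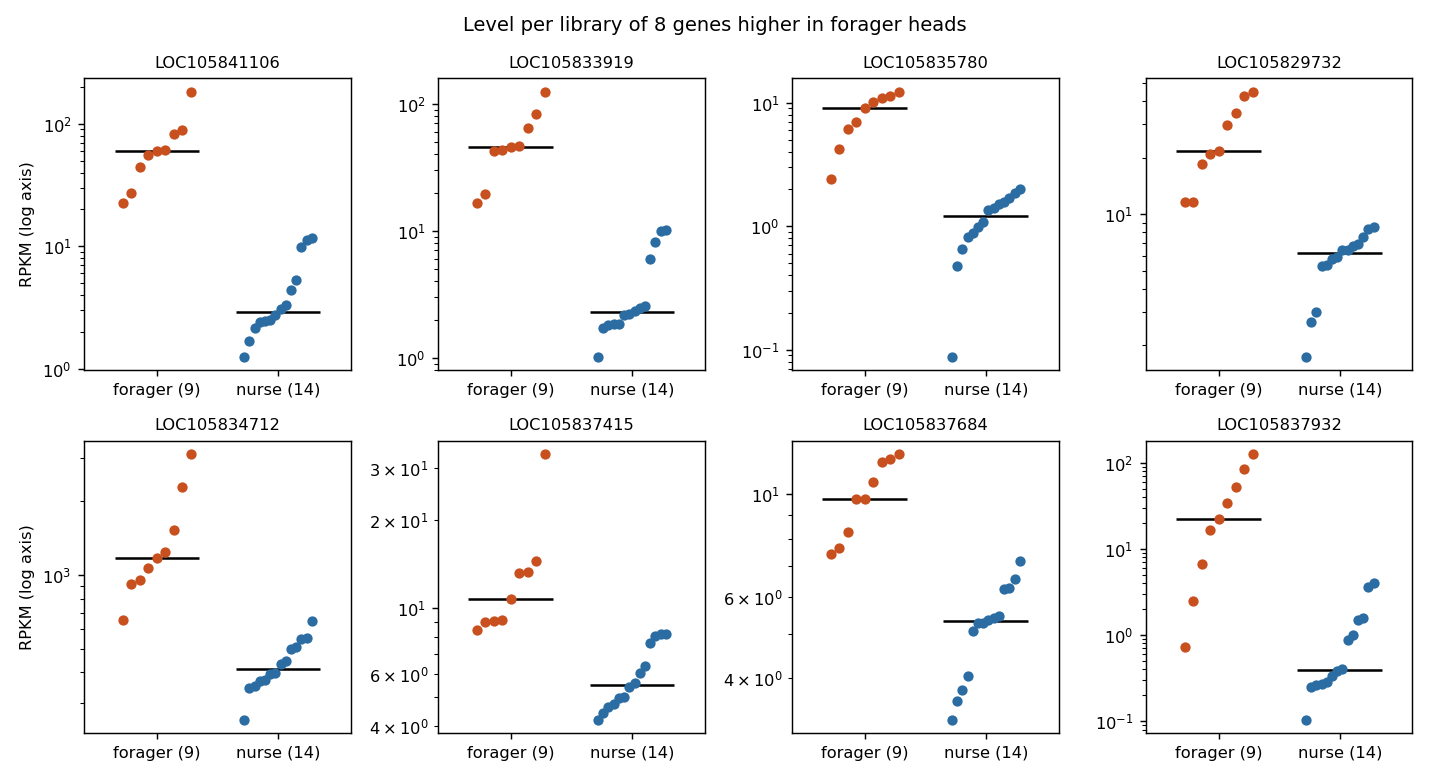
Level of 8 genes in each library, in RPKM on a log axis, for 9 foragers (orange) and 14 nurses (blue); points are single libraries in order of their value and the bar is the median of the task. The 7 genes named in the other panels do not overlap between tasks, while in LOC105837932, at the lower right, the lowest forager (0.721 RPKM) lies below 6 nurses although the ratio of medians is 56.5.

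The largest ratio of medians belonged to a gene that did overlap. LOC105837932 had a forager median of 22.3 RPKM and a nurse median of 0.394, a ratio of 56.5. Its foragers were spread from 0.721 RPKM in forager 6 and 2.46 in forager 9 to 83.4 in forager 3 and 125 in forager 5, the widest relative spread over foragers of all 84 genes. Nurses ranged from 0.105 to 3.97 RPKM, with nurse 1 at 3.97 and nurse 11 at 3.62 above 2 of the 9 foragers. The counts behind the extremes were 18 reads in forager 6, 763 in forager 5, 2 in nurse 8 and 75 in nurse 1. LOC105837932 was also 1 of 3 members, with LOC105835780 and LOC105833021, that reached 1 RPKM in fewer than 9 nurses; all 3 passed the filter with the help of the foragers, so a difference was built into their selection.

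At the other end of abundance, LOC105838064 was among the most abundant transcripts of the head. By the mean of both task means it ranked 2 of all genes, and by library it ranked from 1 to 3 in foragers and from 2 to 22 in nurses. It lay at 7341, 12645 and 17262 RPKM in the lowest, median and highest forager and at 1234, 3305 and 8759 in nurses, a ratio of medians of 3.83. Nurse 1 with 8615 and nurse 3 with 8759 RPKM lay above forager 6 with 7341 and forager 4 with 7659, and the other 12 nurses lay below every forager. Alone it made up 3.66% ± 0.842 of the summed RPKM of foragers (SD, n = 9) and 1.20% ± 0.817 of that of nurses (SD, n = 14). All 84 genes together made up 5.66% ± 1.14 and 2.19% ± 0.927, and without LOC105838064 1.996% ± 0.433 and 0.995% ± 0.127. No length or read count could be recovered for this gene, unlike the other 83.

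Other abundant members differed less. LOC105839346 had 541, 691 and 1235 RPKM in foragers and 55.8, 274 and 545 in nurses, and only nurse 1 with 545 reached the lowest forager. LOC105834049 had 903, 1218 and 2288 RPKM against 636, 921 and 1160, a ratio of 1.32. LOC105838655 had 275, 378 and 560 RPKM against 189, 230 and 334, and LOC105833891 had 117, 152 and 215 against 98.1, 105 and 158. In the last, nurses spanned 98.1 to 158 RPKM and only 4 of 9 foragers lay above the highest of them.

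Most members were genes of moderate level and modest difference. The median forager level was 22.8 RPKM over the 84 genes and 10.8 over all 9622 genes, and the median nurse level was 14.6 against 10.4. By forager median, 20 members lay under 10 RPKM, 55 from 10 to 100, and 9 at 100 or above, of which LOC105838064, LOC105834049 and LOC105834712 were the highest. The ratio of medians had a median of 1.56 over the members, with a middle range of 1.38 to 2.40, beside 1.03 over all genes. It was at least 2 in 28 members, at least 3 in 12, at least 5 in 5 and at least 10 in 3, and under 1.5 in 34. The smallest ratios were 1.16 in LOC105838677, 1.17 in LOC105839336 and 1.20 in LOC105837320. LOC105837320 had a tight spread in both tasks, at 16.8 to 22.8 RPKM in foragers and 15.1 to 19.5 in nurses, which is how so small a difference met the rule.

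**Figure D2:**
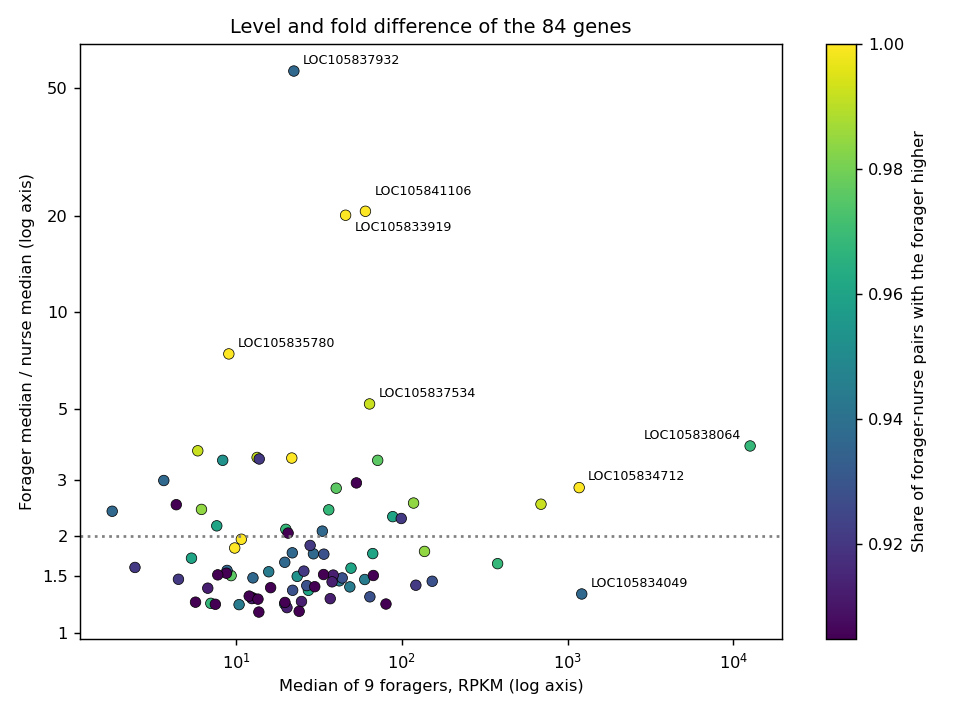
Median RPKM of the 9 foragers (horizontal, log axis) against the ratio of the forager to the nurse median (vertical, log axis) for each of the 84 genes, coloured by the share of pairs in which the forager was higher; the dotted line marks a ratio of 2. Of the 84 genes, 55 lie between 10 and 100 RPKM and 28 at or above a ratio of 2, and the 3 genes above a ratio of 10 have forager medians of 22.3 to 60.2 RPKM.

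The boundary of the group was not sharp. With 126 pairs the lowest score taken in was 0.905, reached by 17 genes, and the next score below it, 0.897, was held by 20 genes that were left out. Just inside were LOC105831230 with forager and nurse medians of 80.1 and 65.1 RPKM, LOC105835710 with 67.2 and 44.5, LOC105838891 with 53.1 and 18.1, and LOC105832463 with 33.7 and 22.1. Just outside were LOC105834125 with 234 and 182 RPKM, LOC105830923 with 124 and 74.2, LOC105840710 with 62.5 and 47.7, and LOC105838917 with 56.6 and 45.4. LOC105838891 shows how a gene can sit at the edge with a ratio of 2.93: its foragers ranged from 18.7 to 118 RPKM, and nurse 8 with 69.9 RPKM lay above 6 of the 9. As a description of the same contrast, limma on log2(RPKM + 1) with Benjamini-Hochberg adjustment over all genes called 169 genes higher in foragers, 1.76% of those tested, and 210 higher in nurses, 2.18%. Of the 84, 81 were among the 169. The other 3, LOC105832333, LOC105838677 and LOC105839336, had the lowest score. The rule used this contrast, so nothing is read from that overlap.

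Over all members the median coefficient of variation within a task was 0.262 in foragers and 0.221 in nurses, close to 0.249 and 0.198 over all genes. In the 28 members with a ratio of at least 2 the median coefficient of variation was 0.458 over foragers and 0.410 over nurses, and in the 34 with a ratio under 1.5 it was 0.184 and 0.144; the rule admits a gene with a small ratio only if its spread is small, so nothing is read from this. On the log2 scale 64 of the 84 had a larger SD in foragers than in nurses, 76.2%, beside 73.2% of all 9622 genes, so the wider spread of foragers was shared with the head transcriptome as a whole. Most members rested on many reads: over the 83 members with recovered reads the median was 353 reads per forager and 334 per nurse. LOC105829729, with a median of 19 and 10.5 reads, and LOC105838682, with 13 and 14, were among the members whose single values carry a large counting error.

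Exceptions to the order of tasks came mainly from a few libraries. Over the 84 genes and 126 pairs there were 10584 pairs, and in 617 of them the nurse was at or above the forager. Forager 6 took part in 185 of these, forager 4 in 128 and forager 9 in 99, while forager 5 took part in 8 and forager 3 in 19. Forager 6 was the lowest forager in 30 members and forager 4 in 19. Among nurses, nurse 2 took part in 101 and nurse 3 in 100, and nurse 9 in 11. Nurse 3 was the highest nurse in 19 members, nurse 2 in 14 and nurse 1 in 11, whereas nurse 9 was the lowest in 19 and nurse 4 in 17. TMM factors measure the general level of all genes in a library. Among foragers they were lowest in foragers 6 and 4, at 0.890 and 0.941, and highest in forager 5, at 1.104. Among nurses they were highest in nurses 3 and 2, at 1.060 and 1.059, and lowest in nurses 1 and 4, at 0.867 and 0.879. Nurse 1 thus had a low factor but many of the highest nurse values. Exceptions were counted without these factors, and the part of general level in them was not tested.

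Several of the same libraries stood at the ends of the average level. The mean log2(RPKM + 1) of the 84 genes, taken from the midpoint of the task means, was 0.89 in forager 5 and 0.77 in forager 3, and 0.10 in forager 6 and 0.16 in forager 9. Forager 4 lay between these, at 0.32. Nurses ran from -0.81 in nurse 9 to -0.18 in nurse 3. Read depth lay at the ends of this order among foragers: foragers 5 and 3 were the shallowest of all libraries, at 3.68 and 4.01 M reads, and forager 6 was the deepest forager, at 15.0 M. Depth did not order the nurses in the same way, since nurse 3 with 30.02 and nurse 6 with 31.3 M reads lay at -0.18 and -0.40, and nurse 9 with 16.2 M at -0.81. The part of depth in the level of these genes within foragers cannot be told apart from other differences between single libraries. Such differences include the general level of all genes, since these means were taken without TMM factors.

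**Figure D3:**
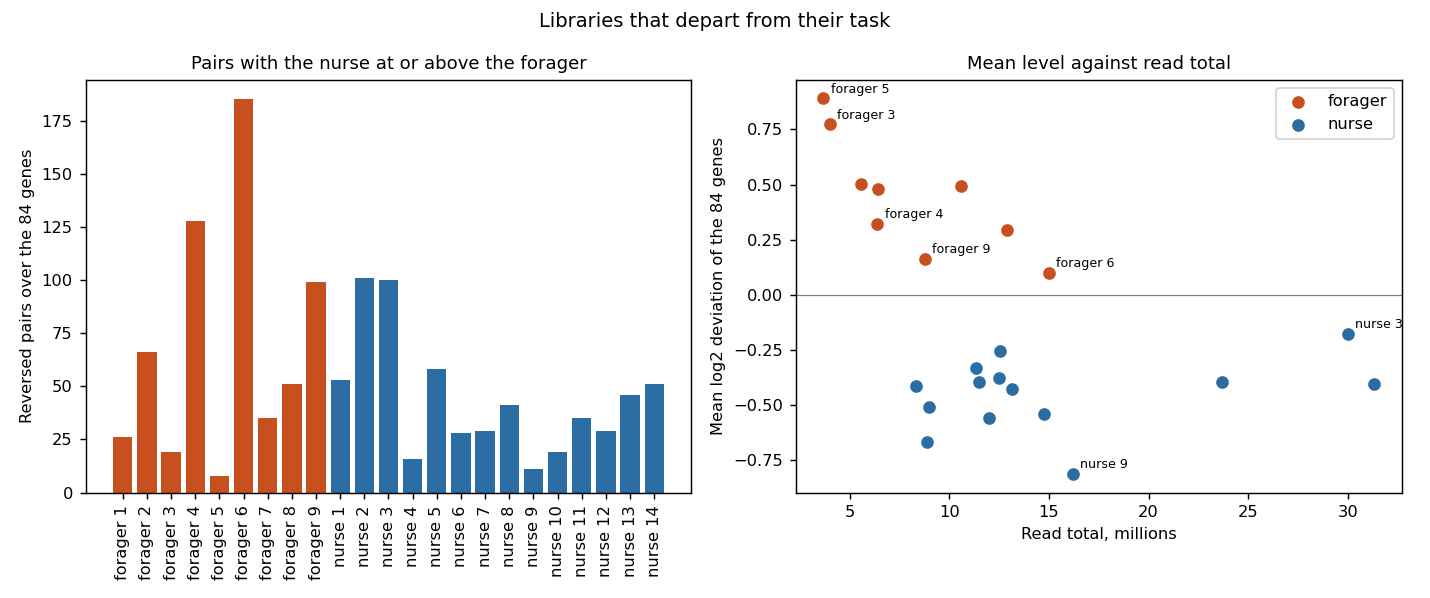
Left, number of the 617 reversed pairs, in which the nurse was at or above the forager, that each library took part in. Right, mean log2 deviation of the 84 genes in each library against its read total in units of 1000000 reads; foragers are orange and nurses blue, and the shallowest foragers, 5 and 3, are the highest at 0.89 and 0.77.

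Depth was tested within tasks. The choice of members did not use read totals, but it used the same values of these libraries, so the slopes of members are not independent of it. With task in the model, limma found no gene related to log2 read total after Benjamini-Hochberg adjustment over all genes (0 of 9622, 0%; 349 genes, 3.63%, at an unadjusted p under 0.05), and so none of the 84. At an unadjusted p under 0.05 there were 10 of the 84, of which 8 had lower values in deeper libraries. This count went to 3 without forager 3, 4 without forager 5 and 3 without forager 6, and to 2 with depth on the linear scale. Over all genes the counts in those settings were 253, 328, 371 and 235. The count of members was 11 without forager 4, 11 without forager 8 and 14 without nurse 3, beside 370, 336 and 560 of all genes. The slope was negative in 65 of the 84, 77.4%, beside 57.7% of all genes, with a median of -0.084 per doubling of depth beside -0.017. Without forager 5 the median of the members was -0.036, without forager 6 -0.048, and 49 and 61 of the 84 were negative. Without nurse 3 the median was -0.126 and 73 were negative, while with depth on the linear scale only 46 were. The median over all genes moved as well, to -0.0016 without forager 5, 0.0033 without forager 6 and -0.037 without nurse 3. On the linear scale it was 4.3e-05 per M reads, beside -0.00094 in the members. Negative slopes over all genes were not counted in these settings. LOC105837932 had the steepest, -1.19 per doubling (limma p = 0.00339, adjusted p = 0.999). LOC105829729 went the other way, at 0.37 (limma p = 0.0341, adjusted p = 0.999).

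Taking depth into account left the differences of most members smaller. With log2 read total as a covariate the median log2 difference of the 84 was 0.61 in place of 0.66, beside 0.010 in place of 0.032 over all genes. Single members kept between 0.675 and 1.41 times their difference, and that of LOC105837932 went from 3.42 to 2.31. The difference shrank in 65 members, the same 65 that had a negative slope. Because foragers were shallower, the sign of the slope fixes this, so the count is no second result. The fit with the covariate called 17 genes higher in foragers, all of them members. A fit without the covariate on the 4 foragers and 11 nurses with read totals between 8 and 17 M called 9. In those 15 libraries 60 of the 84 scored at least 0.90, as did 220 of all 9622 genes, and the median ratio of the members was 1.51. These are the contrast and the libraries that chose the members, so neither the calls nor the scores are independent support. Over all libraries the fit without depth called 169 genes higher in foragers. The covariate overlaps with task, since foragers were shallower. The smaller set of libraries lacks foragers 3 and 5, the highest in mean level, and keeps foragers 6 and 9, the lowest. The part of each in the lower number of calls was not tested.

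Within tasks the 84 genes varied together to a modest degree. After each task's mean was subtracted, the median Pearson correlation between 2 members over the 23 libraries was 0.287, beside 0.086 between 2 genes of all those tested, and 20.1% of the 3486 member pairs exceeded 0.5, beside 8.94%. Within foragers alone the median was 0.408 and within nurses 0.209, beside 0.071 and 0.105. The points share library, depth and scaling, and the value was 0.191 after rescaling by TMM factors, where that of all genes was -0.007, and 0.206 without foragers 3 and 5 together. With any 1 library left out it lay between 0.243 and 0.305. The 79 genes higher in nurses by the mirrored rule were tied more closely, with a median of 0.479 among themselves and -0.075 with the members.

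Grouping by correlation (average linkage, mean r of at least 0.5) gave 9 sets of 3 or more genes, 6 pairs and 11 genes alone. The sets were formed after the values were seen and are described only. A high correlation within a set follows from the way it was formed, so nothing is read from it. The sets were not formed anew without foragers 3 and 5. The largest, set 1, held 26 genes, with LOC105834712, LOC105838655, LOC105831338 and LOC105840976 among them. They were high in foragers 5 and 3, with mean deviations of 1.05 and 0.96, and foragers 6 and 9 lay at -0.10 and 0.01, close to nurse 3 at -0.07. The summed level of the 26 genes was 5346 RPKM in forager 5 and 4547 in forager 3, from 1880 to 3024 in the other foragers, and from 924 to 1550 in nurses. The median correlation in this set was 0.805 in foragers and 0.404 in nurses, and over all libraries it went from 0.610 to 0.440 without foragers 3 and 5.

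Set 2 held the 11 genes around LOC105841106 and had larger differences than set 1, with a median ratio of 3.45 against 1.65. Besides LOC105833919 and LOC105837932 it included LOC105837534, at 35.6, 63.8 and 122 RPKM in the lowest, median and highest forager and 4.97, 12.3 and 37.5 in nurses. Here foragers 3, 5 and 4 were high, with mean deviations of 1.69, 1.64 and 1.38, and foragers 6 and 9 again lay low, at -0.10 and 0.00. Nurse 1 at -0.14, nurse 3 at -0.32 and nurse 6 at -0.48 were the highest nurses. Forager 4 was therefore high in set 2 but low in set 1, at 0.14. The median correlation of set 2 was 0.617, and 0.596 without foragers 3 and 5.

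Set 5 joined the very abundant LOC105838064 and LOC105839346 with LOC105837629, at a median of 33.8 RPKM in foragers and 19.2 in nurses. In foragers their mean deviations ran from 0.41 to 1.16, a smaller range than in nurses, with forager 9 the highest. In nurses they ran from -2.01 in nurse 9 to 0.40 in nurse 1 and 0.33 in nurse 3, close to foragers 2, 4 and 6 at 0.41 each. LOC105838064 alone ran from 1234 to 8759 RPKM among nurses and from 7341 to 17262 among foragers. The correlation in this set was higher in nurses, 0.744, than in foragers, 0.399; this difference was not tested.

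Set 6 differed from sets 1 and 2 in the foragers that were high. It held LOC105829729, LOC105829732 and LOC105835780, which lie next to one another in order of position among the genes of the table that the annotation places. The deviation of set 6 was highest in foragers 6, 9, 8 and 5, at 1.72, 1.57, 1.31 and 1.30, and lowest in foragers 3 and 4, at 0.05 and 0.03. Foragers 9, 8 and 5 were also the highest of set 5, at 1.16, 1.09 and 1.01. Forager 6, the library with most exceptions over the 84 genes, was thus the highest forager of set 6. LOC105829729 had 13.9 RPKM in forager 6 and 2.69 in forager 3, and LOC105829732 had 42.6 and 11.6. The median correlation of set 6 was 0.671 within itself and -0.193 with set 2, a value that was -0.159 with TMM factors and -0.059 without foragers 3 and 5. LOC105829729 and LOC105838682 were the 2 members whose mean correlation with the other members was below 0, at -0.068 and -0.0099, while LOC105836563, LOC105839659 and LOC105833176 had the highest, at 0.477, 0.473 and 0.472.

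**Figure D4:**
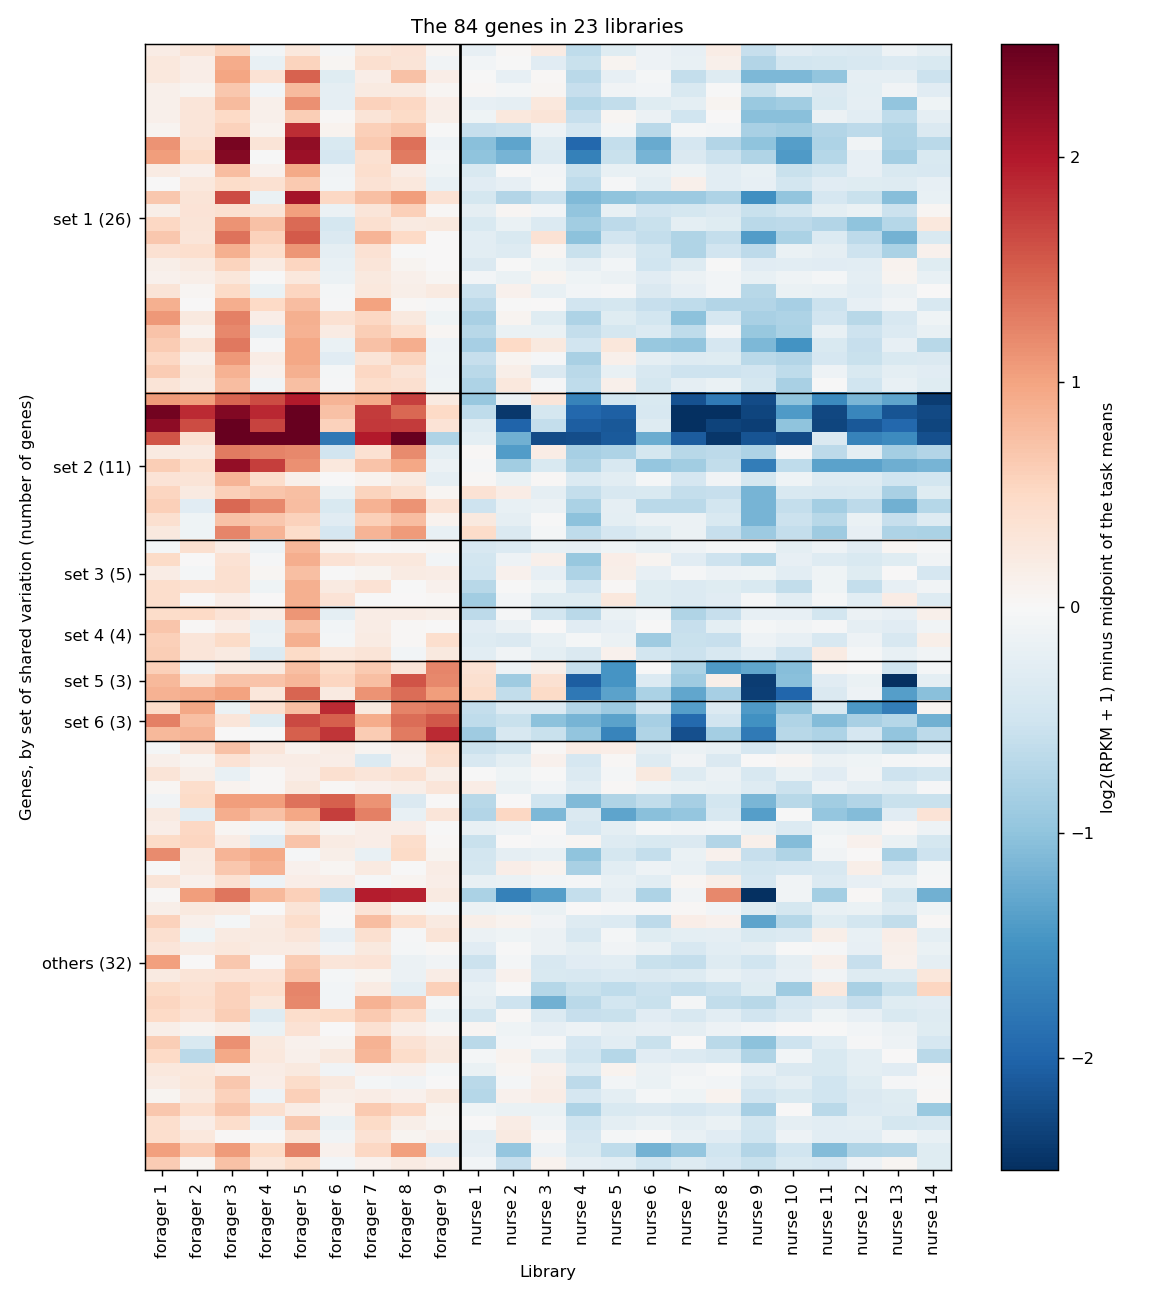
log2(RPKM + 1) of the 84 genes (rows) in 23 libraries (columns), as the difference from the midpoint of the task means, red above and blue below, with colours cut at 2.5. Rows are ordered by the 6 first sets of correlated genes, and the 32 others include 3 smaller sets of 3; foragers 3 and 5 are red in sets 1 and 2, and forager 6 is red in set 6.

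**Figure D5:**
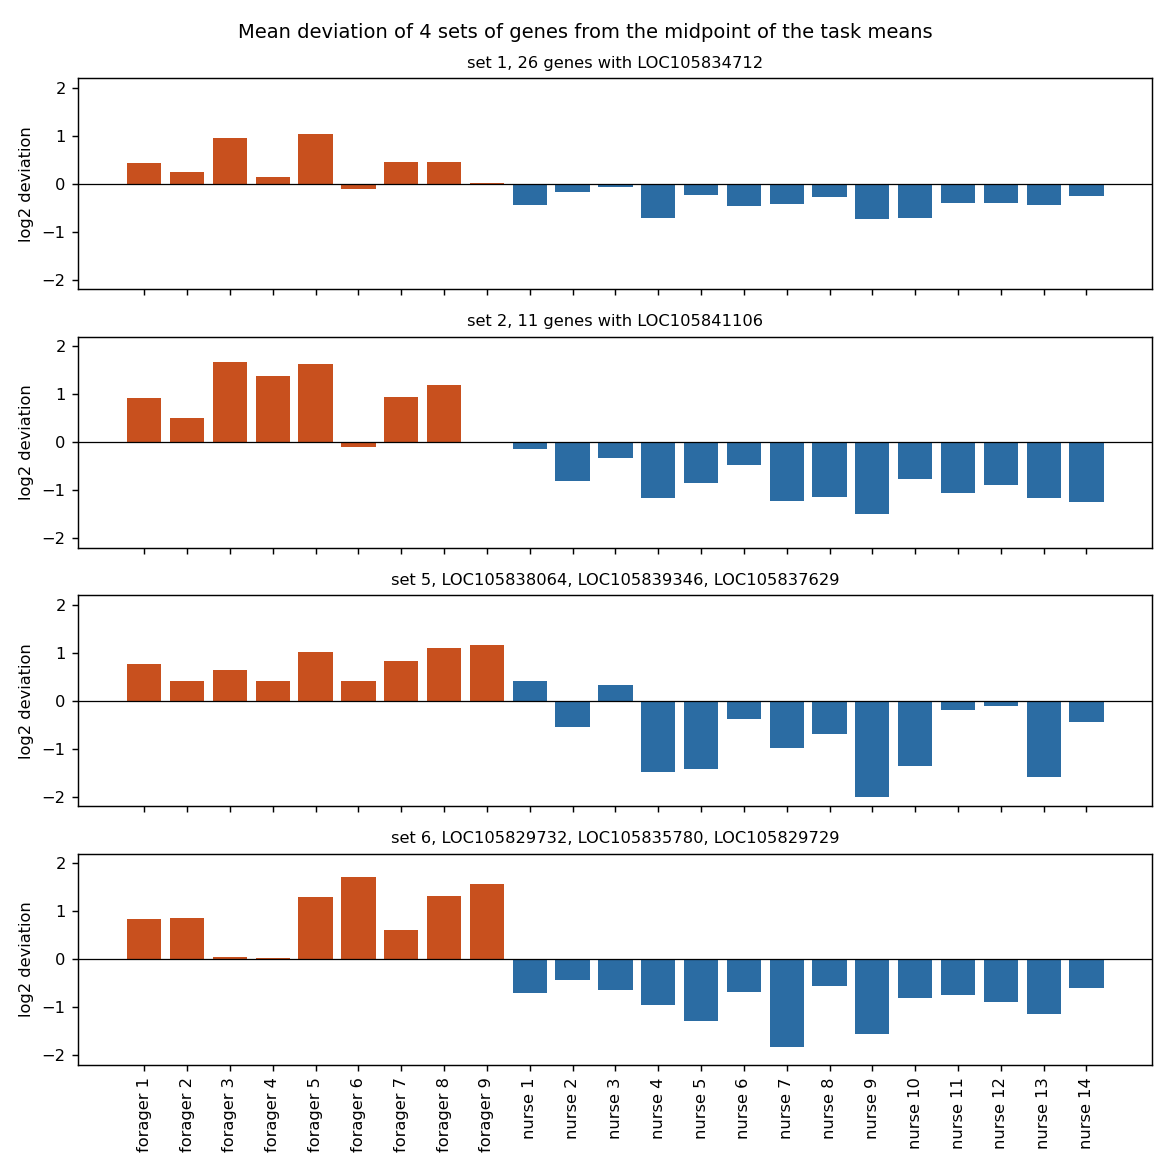
Mean log2 deviation of 4 sets of genes from the midpoint of the task means in each library, foragers orange and nurses blue. Foragers 6 and 9 are near 0 in sets 1 and 2 and at 1.72 and 1.57 in set 6, and nurses 1 and 3 are above 0 in set 5.

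A few pairs of members had almost the same profile. LOC105840976 and LOC105831958 had an r of 0.990 in foragers and 0.966 in nurses, and a ratio of levels from 0.779 to 1.23 with a median of 0.952. LOC105840976 ranged from 19.1 RPKM in forager 6 to 133 in forager 3, with a median of 40.1, and from 5.69 to 23.3 in nurses, with a median of 14.2. LOC105831958 ranged from 18.8 to 130 RPKM in foragers and from 7.30 to 22.1 in nurses. The annotation used here places only LOC105831958 of the 2. In 9 of the 3486 pairs r was at least 0.8 in both tasks, with 15 genes taking part.

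Some of the genes that varied together lie side by side. The annotation placed 79 of the 84, all but LOC105841106, LOC105833919, LOC105840976, LOC105838064 and LOC105835281. Among the genes of the table that it places, 15 of the 79 had a member next to them along the chromosome. They form 6 pairs and the run of 3 in set 6. LOC105831338 and LOC105831339 had r of 0.896 in foragers and 0.794 in nurses; the former had a median of 137 RPKM in foragers and 76.3 in nurses, the latter 66.6 and 37.7. LOC105836563, with medians of 88.0 and 38.2 RPKM, and LOC105836564, with 21.8 and 12.3, had r of 0.923 and 0.768, but their spans overlap and reads without strand cannot be assigned between them. LOC105834263 and LOC105839907 had r of 0.950 and 0.831. Nearness did not always go with a shared profile: LOC105831183 and LOC105831185 had r of 0.212 and 0.040, and LOC105837788 and LOC105837814 had 0.414 and -0.061. LOC105839660 and LOC105839659 had 0.838 and 0.405. In all, 22 members have a span that overlaps that of a neighbouring gene of the table. The counts of 15 and 22 were not taken over all genes that the annotation places, so nothing is read from them.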

How the data were processed

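The table the authors deposited gives RPKM for 12648 genes in 23 columns, 1 per library, all used. The aligner was STAR 2.5.0b (submitters' processing notes); the sources used here do not give the counting tool, the build or the gene models. Since RPKM is a share of a library, abundant transcripts depress the rest. From the steps between low values, kept to 6 significant digits, library totals and the length and reads of 12145 genes were worked out; 99.9% of values came out whole within 0.05 reads, and lengths were chosen to make them so. No 2 libraries of a task were duplicates (lowest chi-square per degree of freedom 11.2).

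The members and lists were chosen with earlier results of these data known. Tests used limma with an intensity trend on log2(RPKM + 1), two-sided, threshold 0.05, over the 9622 genes. The genes named were, by rule, the members with the highest scores, ratios, levels, spreads and mean correlations, the lowest ratios and mean correlations, those at the threshold, and neighbours; LOC105833021, LOC105837629 and the genes named for a set or a call were chosen after their values were seen. Lists by product name could not be filled, and no protein identity was computed. Neighbours are those of assembly GCF_013373865.1 ASM1337386v2, which holds 10698 of the identifiers. Alternatives were other scalings, filters, pseudocounts and tests, a replicate block, depth, and leaving out each library. The recovery and the test were checked on simulated data. Software was R 4.3.3 (limma 3.58.1) and Python 3.11.15 (pandas 2.3.3, SciPy 1.17.1, NumPy 2.4.6; figures by matplotlib 3.10.9).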

Additional observations from a re-analysis of the deposited data

Results flagged for a closer look

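In 6 of 39 named members forager 5, the shallowest library at 3.68 M (1000000) reads, stood apart from the other 8 foragers in RPKM, with a gap over the range past Dixon's 95% critical value for 9 samples. LOC105841106 was at 183 RPKM there, where the next forager had 88.3. LOC105837415 was at 33.3, where the next had 14.4, and this gap of 0.758 of the range was also past the limit on the log2(RPKM + 1) scale, at 0.618. LOC105834049 was at 2288 RPKM, with the next at 1509, and LOC105833891 at 215, with the next at 166. LOC105839336 was at 41.8 RPKM, with the next at 30.7, and LOC105831230 at 146, with the next at 107. Both ends of 41 measures were looked at, chance flags about 1 in 20 groups, and the genes are correlated, so the 6 are not independent. Groups of 14 were not looked at. With task in the model, the relation to log2 read total passed the limma threshold in none of the 6 genes (slopes from -0.13 to -0.05 on the log2 scale per doubling, unadjusted p from 0.0960 to 0.761, adjusted p = 0.999).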

How the results depend on the processing

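Of 233 alternatives, 205 kept their value within the limits set. For counts the limit was 1.5 times in either direction. For the median log2 difference it was 0.262, the SD of the members' mean deviation over foragers. For the median correlation it was 0.124, the SD of the members' mean correlations. The last 2 limits are spreads over single libraries and single genes and are wide for a median. All 31 alternatives of each measure fell within them, so nothing is read from that. Counts cannot change direction, and the members were chosen as higher in foragers, so nothing is read from the lack of reversals. Chosen after seeing the data were the limma fits and the median difference at 8 to 17 M (1000000) reads, depth as a covariate for the median difference, and the correlation without foragers 3 and 5. The 84 genes went to 131 by quantile scaling, of which 67 were among the 84, and to 220 among libraries of 8 to 17 M reads, where only 44 pairs remain. Leaving out 1 library gave 72 to 171: 163 without forager 4 and 171 without forager 6, with 78 of the 84 kept in each. The 169 genes called higher in foragers and 210 in nurses went to 258 and 323 with a common total, 278 higher in foragers by quantiles, and 339 and 360 higher in nurses by TMM and median-of-ratios factors. They went to 17 and 4 with depth as a covariate and 9 and 1 at 8 to 17 M reads. Leaving out 1 library gave 88 to 276 and 112 to 328: 98 and 112 without forager 3, 88 and 119 without forager 5, 268 and 276 higher in foragers without foragers 4 and 6, and 328 higher in nurses without nurse 1. The 81 members called went to 17 and 9 in the 2 depth settings, and to 64 to 82 with 1 library left out. The sources used here do not say whether replicate numbers pair the libraries. Deviations of same-numbered foragers and nurses correlated above 0.1 in 4 of 9 cases (range -0.34 to 0.43). In these, 1 forager was closest to the nurse of its number. Such correlations over all genes cannot settle whether the libraries were paired. The replicate block gave 44 and 22 genes and 39 members, and numbers 1 to 9 without a block 44 and 29 genes and 41 members. The median log2 difference of the members stayed between 0.62 and 0.69, and their median correlation between 0.243 and 0.305, with 1 library left out. Over the other settings the difference ran from 0.521 with a pseudocount of 5 to 0.705 with 0.1, and was 0.535 at 8 to 17 M reads. There the correlation ran from 0.189 with median-of-ratios factors to 0.293 with a pseudocount of 5. No gene related to depth was called in any of 26 settings. The cause of these changes was not tested. Depth limits the members with few reads, and precision beyond counting error is not known, since reads are not independent molecules.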

Other observations

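The genes next to a member were looked at as well. Of 120 tested genes that neighbour a member without being one, 18 had the forager higher in at least 0.75 of the pairs, 15.0%, beside 8.32% of all 8772 tested genes that the annotation places and that are not members. The median score was 0.548 in neighbours and 0.540 in all of these genes, so at the median the neighbours leaned about as far as the other genes. Some of the spans overlap, where unstranded reads do not show which gene they came from. These shares describe the libraries and were not tested.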
